A study of Bos taurus with 33 samples.

Results

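The 10 genes described here belong to gonadotropin reception and cyclic nucleotide control, and they were followed through every oocyte pool and cumulus cell (CC) pool of the study. They were the gonadotropin receptors FSHR and LHCGR, the natriuretic peptide NPPC and its receptor NPR2, the receptor GPR3, the adenylyl cyclase ADCY3, the phosphodiesterases PDE3A, PDE4D and PDE8A, and the protein kinase A subunit PRKAR2B. The 10 genes were chosen by symbol and joined between the tables by Ensembl identifier, out of 17543 genes listed in either table (16279 for oocytes and 16244 for CC). All 10 were listed in both tables. LHCGR (ENSBTAG00000016573) had no symbol in the CC table and was found there by its identifier. NPR2 (ENSBTAG00000011434) had no symbol in either table and was matched by the RefSeq protein named in its description.

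Follicle-stimulating hormone and luteinizing hormone act on somatic cells of the follicle through the receptors encoded by FSHR and LHCGR, which couple to the G protein that activates adenylyl cyclase and raises cAMP. In the mammalian oocyte, cAMP made downstream of GPR3 holds meiosis at prophase, and PDE3A breaks that cAMP down. C-type natriuretic peptide, the product of NPPC, activates the guanylyl cyclase NPR2 on cumulus cells, and the cGMP formed there passes through gap junctions into the oocyte and inhibits PDE3A until the gonadotropin surge.

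The cows were suckled postpartum beef cows given GnRH 9 days and prostaglandin F2 alpha 2 days before day 0, and all 3 follicle classifications shared these injections. Cows without estrus received a second GnRH injection on day 0 and were classed by the diameter of the largest follicle as small (up to 11.7 mm) or large (from 12.7 mm). Cows of the spontaneous classification (11.7 to 14 mm) came into estrus, received no second GnRH and made their own gonadotropin surge, so estrus, GnRH treatment and follicle diameter cannot be told apart in comparisons with this classification. Aspiration followed the injection or estrus by about 20 h in one label and about 23 h in another. Each library was made from 4 oocytes or from the CC of such complexes, so a pool is an average over its complexes, with 6 small, 6 large and 4 spontaneous oocyte pools and 6, 6 and 5 CC pools.

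The unit of all levels is counts per 1000000 reads on genes (CPM), and the depth was 7664375 to 17934916 reads in oocyte pools and 1911600 to 5772431 in CC pools. A pool with no read of a gene could still hold the worth of 3 reads, a value of 0.167 to 0.391 CPM for oocytes and 0.520 to 1.57 CPM for CC. This limit covers counting error only. The cell labels were checked with markers: the sum of 10 oocyte markers ran from 7083 to 10832 CPM over the oocyte pools and from 1.57 to 13.7 CPM over the CC pools. The 10 cumulus and granulosa markers had sums of 3511 to 8878 CPM in CC, where FOXL2 was under 1 CPM, and of 152 to 676 CPM in oocytes. Of the 5 theca markers CYP17A1 was under 1 CPM in CC pools, where the list summed to 234 to 1302 CPM, led by INSL3.

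Some of these genes were separated between the cell types and others overlapped. As measured, FSHR, LHCGR and PRKAR2B were higher in every CC pool than in any oocyte pool, and GPR3 and PDE3A were higher in every oocyte pool than in any CC pool. ADCY3, NPR2 and PDE8A overlapped between the cell types. PDE4D overlapped too, at low levels (median of 2.72 CPM in CC and 0.278 CPM in oocytes), and NPPC was near the detection limit in most pools. The filter used for testing asked for 5 CPM or more in 4 or more of the oocyte pools, or in 5 or more of the CC pools. FSHR and LHCGR passed it only in CC, and GPR3, ADCY3 and PDE3A only in oocytes. Of the 8 genes that passed it in either, 3 were thus separated with CC above and 2 with oocytes above. LHCGR is counted among the 3, though its lowest CC pool held 1 read and its separation is not resolved at this depth. Over all 11431 genes that were listed in both tables and passed this filter in either, 13.4% were separated with CC above and 22.9% with oocytes above. The tables were scaled separately, so these are levels set side by side with no test. In bulk pools, fewer cells of a type and less RNA per cell cannot be told apart. Read counts are not corrected for transcript length, so levels are compared between pools of 1 gene and not between genes.

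**Figure D1:**
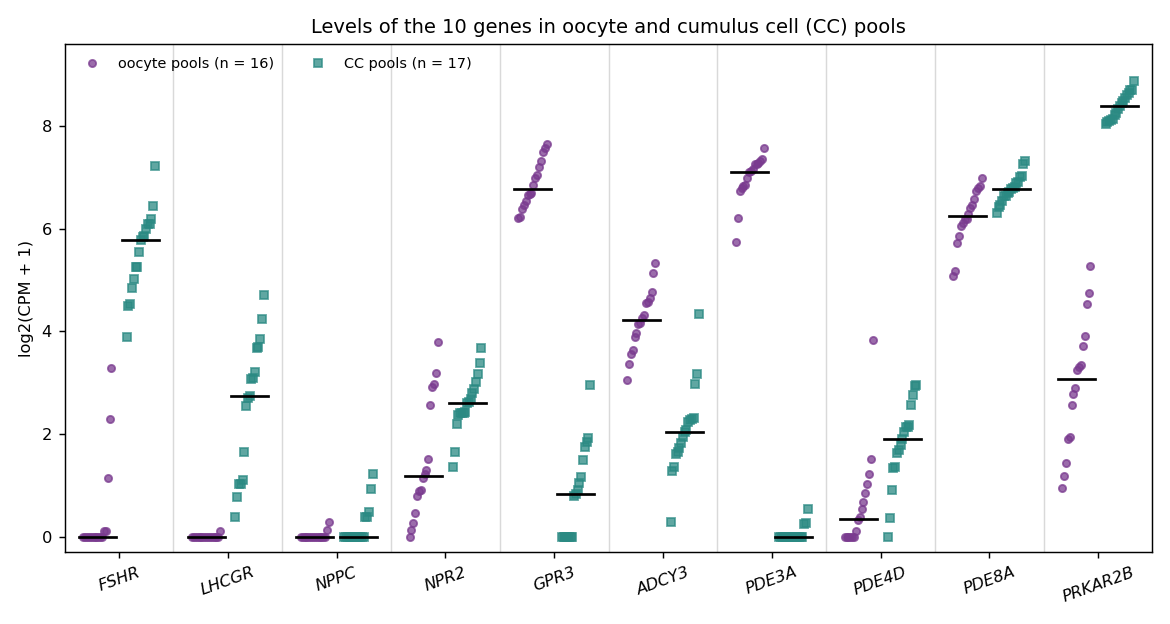
Level of each of the 10 genes in every pool, as log2(CPM + 1), with oocyte pools as circles (n = 16), CC pools as squares (n = 17) and the median of each as a black bar. FSHR, LHCGR and PRKAR2B separate with CC pools above, GPR3 and PDE3A separate with oocyte pools above, and the pools of the other 5 genes overlap or lie near 0. The lowest CC pool of LHCGR holds 1 read, so its separation is not resolved at this depth.

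The receptors for the gonadotropins were transcripts of the CC. FSHR (ENSBTAG00000032424) was at 13.9 CPM in the lowest, 53.9 in the median and 148 in the highest of the 17 CC pools. In 11 of the 16 oocyte pools it had no read, and most of the 226 oocyte reads came from spontaneous replicate 4 (8.81 CPM, 158 reads) and large replicate 3 (3.89 CPM, 50 reads). The cumulus and granulosa marker sum was 238 CPM in spontaneous replicate 4 and 224 CPM in large replicate 3, not the highest in either classification. The source of these FSHR reads was not tested. LHCGR, the receptor whose activation by the surge starts ovulation, was at 0.308 CPM in the lowest, 5.66 in the median and 25.04 in the highest CC pool. In the oocytes LHCGR had 1 read over all 16 pools, against 571 reads in the CC pools. The lowest CC pool (small replicate 2) held 1 read of LHCGR, which is within what a pool with no read could still hold, so that its separation from the oocyte pools is not resolved at this depth.

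The natriuretic peptide pair was scarce. NPPC (ENSBTAG00000003253), the gene of the peptide that mural granulosa cells make, had 15 reads in all 17 CC pools together and 4 in all oocyte pools. Of the 15, 13 lay in spontaneous CC pools (0, 0.390, 0, 0.907 and 1.32 CPM in replicates 1 to 5), 2 in small pools and 0 in large pools. An exact permutation test of mean CPM gave p = 0.0606 for NPPC between large and spontaneous CC pools, on values at the worth of 6 reads or fewer. NPR2 was at 1.57 CPM in the lowest, 5.11 in the median and 11.8 in the highest CC pool, and at 0, 1.27 and 12.9 CPM in the oocyte pools.

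In the oocytes NPR2 passed the filter through exactly 4 pools. They were large replicate 6 (12.9 CPM), spontaneous replicate 3 (8.12 CPM), small replicate 3 (6.92 CPM) and large replicate 2 (6.59 CPM). The first 3 of these were also the pools with the most cumulus and granulosa transcripts in their classification, with marker sums of 676, 511 and 506 CPM, whereas large replicate 2 was at 229 CPM. The part of these transcripts in the NPR2 values was not tested. Without those 3 pools the highest oocyte value of NPR2 was 6.59 CPM, and its oocyte and CC pools still overlapped.

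Production of cAMP was represented on the oocyte side by GPR3 and ADCY3. GPR3 (ENSBTAG00000002505), a receptor that signals constitutively, was at 73.2 CPM in the lowest, 109 in the median and 201 in the highest oocyte pool. In CC it was at 0 in 7 of 17 pools and reached 6.72 CPM in large replicate 1. The mean was 122 ± 41.6 CPM in oocytes (SD, n = 16) and 1.23 ± 1.72 CPM in CC (SD, n = 17), a ratio of 99.3. ADCY3 (ENSBTAG00000018705), a membrane-bound adenylyl cyclase, was at 7.32, 17.5 and 39.1 CPM in the lowest, median and highest oocyte pool. In CC pools it was at 0.226, 3.09 and 19.2 CPM, so that the ranges overlapped through small CC replicate 6 at 19.2 CPM and small replicate 1 at 7.97 CPM.

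The phosphodiesterases took 3 different patterns. PDE3A (ENSBTAG00000017260), the cAMP-degrading enzyme that cGMP inhibits, was at 52.2 CPM in the lowest, 138 in the median and 189 in the highest oocyte pool. In CC it had 4 reads in all 17 pools, with no read in any of the small pools. PDE8A (ENSBTAG00000015909), a high-affinity cAMP phosphodiesterase, was substantial on both sides of the complex. Its lowest, median and highest levels were 78.5, 109 and 159 CPM in CC pools and 32.8, 74.6 and 126 CPM in oocyte pools. PDE4D (ENSBTAG00000000494), a cAMP-specific enzyme known from granulosa cells, passed the filter in neither cell type. It was at 0, 2.72 and 6.76 CPM in the lowest, median and highest CC pool. In oocyte pools its median was 0.278 CPM, with 180 of its 263 reads in small replicate 2 (13.3 CPM).

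PRKAR2B (ENSBTAG00000014958) encodes the type II beta regulatory subunit that holds protein kinase A inactive until cAMP binds. It was at 261 CPM in the lowest, 334 in the median and 468 in the highest CC pool, and at 0.921, 7.46 and 37.6 CPM in the oocyte pools. The mean was 341 ± 62.6 CPM in CC (SD, n = 17) and 10.3 ± 10.2 CPM in oocytes (SD, n = 16), a ratio of 33.0. The highest small and large oocyte pools for PRKAR2B were small replicate 3 (37.6 CPM) and large replicate 6 (26.0 CPM), the same pools that had the most cumulus and granulosa transcripts in their classification. Among spontaneous oocyte pools the highest was replicate 2 (14.1 CPM, marker sum 341 CPM), above replicate 3 (12.2 CPM, marker sum 511 CPM). Without small replicate 3, large replicate 6 and spontaneous replicate 3, the highest oocyte level of PRKAR2B was 22.0 CPM, in small replicate 5. The part of cumulus transcripts in these values was not tested.

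From a list of 80 other genes of cAMP and cGMP signalling, 57 were listed in both tables and passed the filter in either. Of these, 39 overlapped between the cell types, 5 were separated with CC above and 13 with oocytes above, shares at or below the 13.4% and 22.9% of all genes given before. The genes named next were chosen after their values were seen. PRKAR2A, the alpha partner of PRKAR2B, lay on the opposite side, with a mean of 162 CPM in oocytes and 46.9 CPM in CC. Among the adenylyl cyclases ADCY6 was separated with CC above (means of 151 and 17.1 CPM) and ADCY9 with oocytes above (62.4 and 15.0 CPM). Among the phosphodiesterases PDE7B was separated with CC above (46.1 and 1.65 CPM), whereas PDE7A (113 and 14.9 CPM), PDE3B (32.1 and 6.40 CPM) and PDE4A (15.1 and 0.673 CPM) were separated with oocytes above. GUCY1B3, a subunit of soluble guanylyl cyclase, was at 24.3 CPM in CC and 1.97 CPM in oocytes. PRKG1, a kinase activated by cGMP, was at 67.6 CPM in oocytes and 2.04 CPM in CC. GPR12, a close relative of GPR3, passed the filter in oocytes, at a mean of 76.7 CPM, and was not among the genes listed for CC.

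Follicle classifications were compared within each cell type by limma's moderated test on log2(CPM + 1), two-sided. A transcript was called at a nominal p of 0.01 or less, and in comparisons with small oocyte pools it also had to pass without small replicate 3. None of the 10 genes was called in any of the 6 comparisons. Of 33 tests (6 genes in oocytes and 5 in CC, in 3 comparisons each), 2 had a limma p under 0.05, both of LHCGR in CC. Of all 10076 tested oocyte transcripts, 414 were under 0.05 from small to large, 454 between small and spontaneous and 491 between large and spontaneous. In CC it was 388, 830 and 687 of 9712, in the same order. With edgeR and DESeq2 on the recovered reads, 0 of the 10 genes were called as well. Across all tested transcripts, the calls were 0.655% of 10076 in oocytes from small to large follicles, 0.774% between small and spontaneous and 0.943% between large and spontaneous. In CC they were 0.813% of 9712 from small to large, 2.38% between small and spontaneous and 1.66% between large and spontaneous. Taking every tested CC transcript, the median difference on the log2 scale was 0.16 between small and spontaneous and 0.11 between large and spontaneous pools, and the CC differences below are to be read against these medians. Of the called transcripts, 84.8%, 95.7% and 87.6% were higher in the second group in CC, in the same order, but with median-of-ratios size factors it was 62.9%, 61.9% and 53.4%. In oocytes it was 68.2%, 67.9% and 42.1%, and 55.7%, 58.9% and 41.1% with those size factors. The labels do not say which pools were collected together, and p-values measure the spread between these pools, which may be technical in part.

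In CC, LHCGR gave the largest differences of the 5 genes tested there, between spontaneous pools and the others. Its lowest, median and highest levels were 0.308, 1.60 and 17.9 CPM in small pools and 0.712, 5.15 and 11.7 CPM in large pools. The 5 spontaneous pools were at 7.52, 5.66, 7.44, 25.04 and 11.9 CPM (replicates 1 to 5). Of the 6 small pools, 4 lay below every spontaneous pool, while small replicates 4 (17.9 CPM) and 5 (13.5 CPM) lay among or above them. The mean of LHCGR was 5.99 ± 7.67 CPM (SD, n = 6) for small, 5.36 ± 4.21 (SD, n = 6) for large and 11.5 ± 7.91 (SD, n = 5) for spontaneous follicles.

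From small to spontaneous CC pools the log2 fold change of LHCGR was 1.43 (SE 0.639), with a limma p of 0.0390 and a Benjamini-Hochberg adjusted p of 0.565. Between large and spontaneous pools it was 1.13 (SE 0.520), with a limma p of 0.0448 and an adjusted p of 0.699, and between small and large pools 0.30 (SE 0.682), with a limma p of 0.664. These comparisons share pools. The exact permutation test of mean CPM gave p = 0.268, 0.104 and 0.859 in the same order, where the smallest p the test allows is 0.00216. Without small replicate 4 the difference from small to spontaneous was 1.87, with a limma p of 0.00485 that is past the threshold. On the recovered reads edgeR's quasi-likelihood test put the difference at 0.82 between small and spontaneous and 1.0 between large and spontaneous pools and called neither. Small pools held 1 to 63 reads of LHCGR each, and large pools 2 to 52.

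Theca cells carry LHCGR too, so the theca markers were set beside it. Their sum ran from 234 to 1179 CPM over small, from 552 to 885 CPM over large and from 555 to 1302 CPM over spontaneous CC pools. The largest sum in each of the small and spontaneous classifications lay in small replicate 5 (1179 CPM) and spontaneous replicate 4 (1302 CPM), which had 13.5 and 25.04 CPM of LHCGR. Among large pools it lay in replicate 3 (885 CPM), which had 4.84 CPM of LHCGR, while replicate 6 (754 CPM) had 11.7 CPM. Small replicate 6 (770 CPM) and spontaneous replicate 2 (807 CPM) had 1.04 and 5.66 CPM of LHCGR. Small replicate 4, with 17.9 CPM of LHCGR, had a sum of 552 CPM. The sum of cumulus and granulosa markers was also highest in spontaneous replicate 4 (8878 CPM). The part of either in the LHCGR values was not tested.

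**Figure D2:**
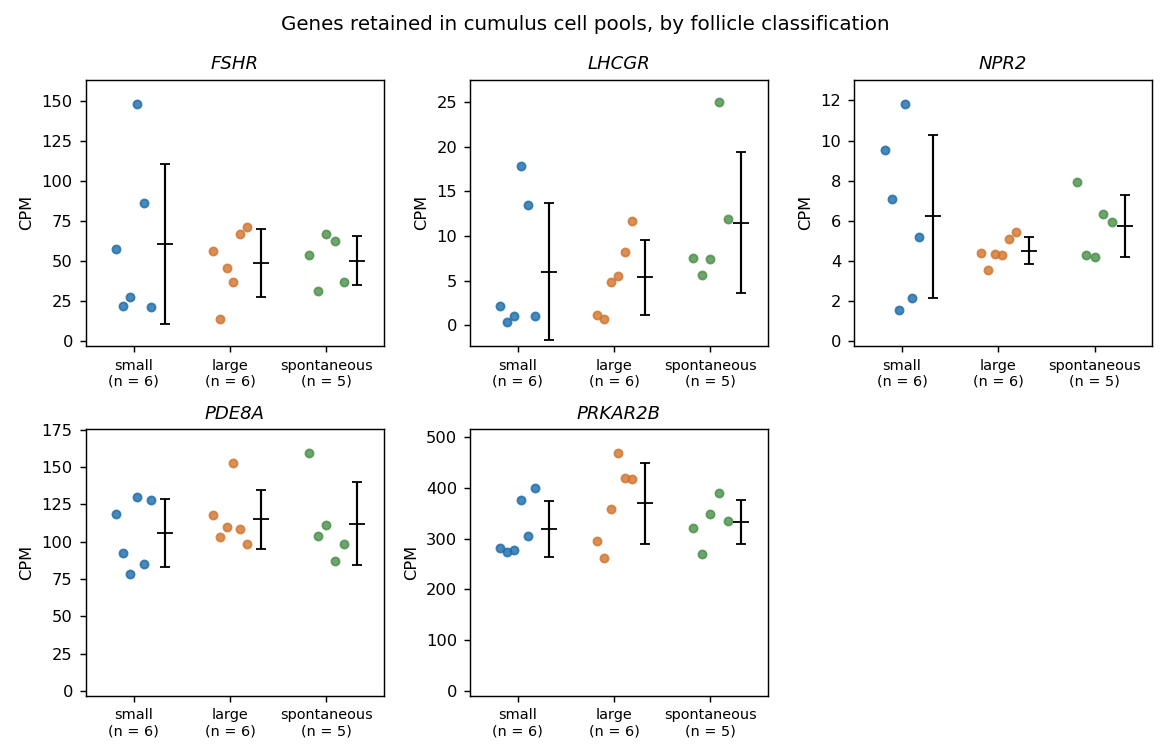
CPM of the 5 genes retained in CC pools, with 1 point per pool for small (n = 6), large (n = 6) and spontaneous (n = 5) follicles, and mean ± SD to the right of the points. LHCGR is at or under 2.15 CPM in 4 small pools and from 5.66 CPM upward in all spontaneous pools, while the classifications overlap for each gene.

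FSHR was spread most widely among small CC pools, at 21.5 CPM in the lowest, 42.5 in the median and 148 in the highest. Large pools ran from 13.9 to 71.6 CPM (median 51.1) and spontaneous pools were at 53.9, 31.6, 66.8, 62.4 and 37.3 CPM. The classifications overlapped, and small replicates 4 and 5, the highest small pools for LHCGR, were also the highest for FSHR (148 and 86.4 CPM). Differences of FSHR on the log2 scale were -0.10 (SE 0.447) between small and large, 0.06 (SE 0.421) between small and spontaneous and 0.16 (SE 0.343) between large and spontaneous pools, with limma p-values of 0.826, 0.891 and 0.651.

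NPR2, PDE8A and PRKAR2B also overlapped among the CC classifications. NPR2 ran from 1.57 to 11.8 CPM over small pools (3 to 39 reads), from 3.56 to 5.42 over large and from 4.18 to 7.94 over spontaneous pools. PDE8A averaged 106 ± 22.7 CPM for small, 115 ± 19.7 for large and 112 ± 27.8 for spontaneous follicles (SD, n = 6, 6 and 5). PRKAR2B was at 319 ± 54.5, 370 ± 79.9 and 333 ± 43.7 CPM (SD, n = 6, 6 and 5). Over the 4 CC genes other than LHCGR, the log2 fold changes lay between -0.17 and 0.27 and no limma p was under 0.280. Of the genes under the filter in CC, ADCY3 was at 0.226 to 3.90 CPM in large pools and 2.30 to 6.83 CPM in spontaneous pools, with an exact permutation p of 0.0606.

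In oocytes GPR3 and PDE3A, the source and the breakdown of oocyte cAMP, kept to overlapping ranges. GPR3 was at 73.2, 130 and 201 CPM (lowest, median and highest) in small pools and 82.1, 123 and 179 CPM in large pools. The 4 spontaneous pools were at 87.4, 99.6, 91.5 and 126 CPM, and lay inside the range of the small pools. The log2 fold change of GPR3 was -0.003 (SE 0.253) from small to large and -0.29 (SE 0.236) from large to spontaneous, with limma p-values of 0.991 and 0.236.

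PDE3A was at 52.2, 147 and 159 CPM in small oocyte pools, where replicate 5 was the lowest and the other 5 lay from 114 CPM upward. Large pools were at 110, 131 and 189 CPM, and spontaneous pools at 106, 162, 73.2 and 138 CPM. Its log2 fold changes were 0.16 (SE 0.236), -0.08 (SE 0.294) and -0.24 (SE 0.237) from small to large, small to spontaneous and large to spontaneous, with limma p-values of 0.492, 0.796 and 0.318. The smallest limma p of any of the 6 genes in oocytes was 0.182, for PDE8A from large (82.96 ± 15.5 CPM, SD, n = 6) to spontaneous pools (65.7 ± 20.9 CPM, SD, n = 4).

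ADCY3, NPR2 and PRKAR2B varied widely within oocyte classifications. ADCY3 ran from 7.32 to 39.1 CPM over small, from 14.6 to 34.1 over large and from 10.8 to 24.1 over spontaneous pools. PRKAR2B was at 13.3 ± 14.0, 8.61 ± 9.19 and 8.49 ± 5.52 CPM (SD, n = 6, 6 and 4). Its log2 fold changes were -0.52 (SE 0.708), -0.21 (SE 0.754) and 0.32 (SE 0.746) between small and large, small and spontaneous, and large and spontaneous pools, with limma p-values of 0.47, 0.787 and 0.674. Those of NPR2 were 0.82 (SE 0.735), 0.36 (SE 0.831) and -0.45 (SE 0.828), with limma p-values of 0.276, 0.664 and 0.590, and rest on the 4 pools named above. The median over the 6 oocyte genes was 0.16 on the log2 scale between small and large, -0.14 between small and spontaneous and -0.33 between large and spontaneous pools, where all oocyte transcripts had medians of 0.05, 0.05 and 0.0078. FSHR, not retained in oocytes, had no read in any small oocyte pool, and the exact permutation p-values against large and spontaneous pools were 0.182 and 0.133.

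**Figure D3:**
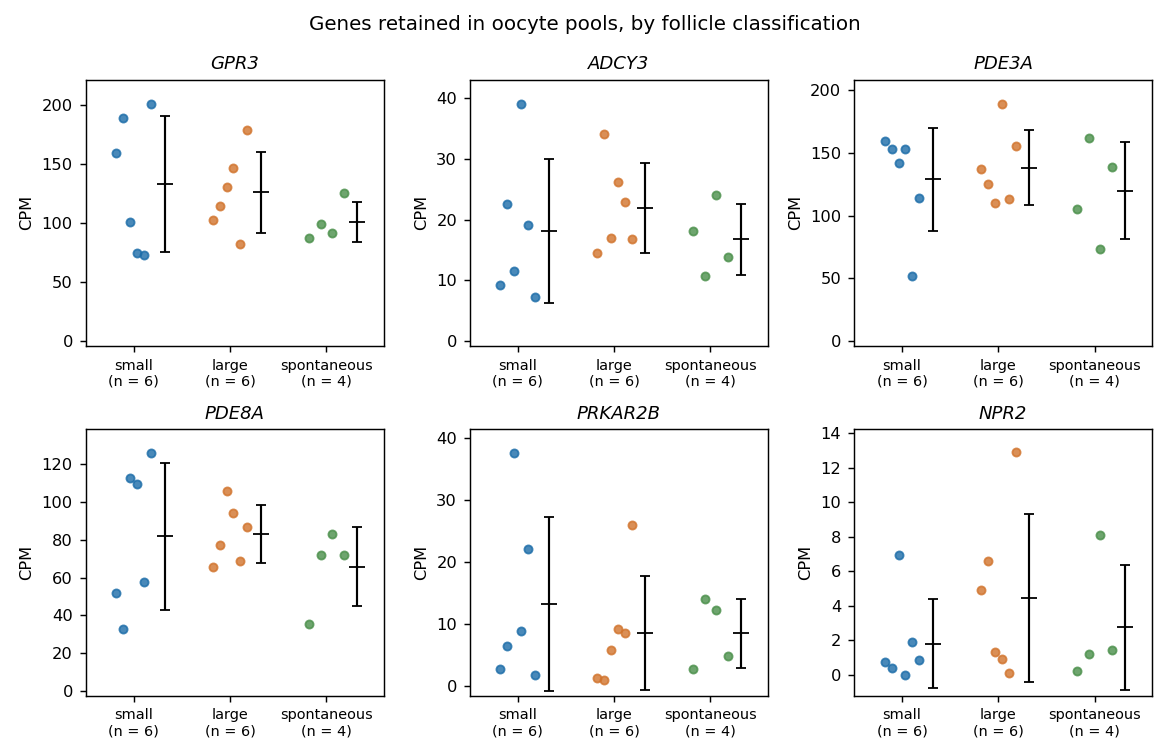
CPM of the 6 genes retained in oocyte pools, with 1 point per pool for small (n = 6), large (n = 6) and spontaneous (n = 4) follicles, and mean ± SD to the right of the points. The classifications overlap for each gene, and the highest NPR2 pool of each classification stands above 6 CPM.

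**Figure D4:**
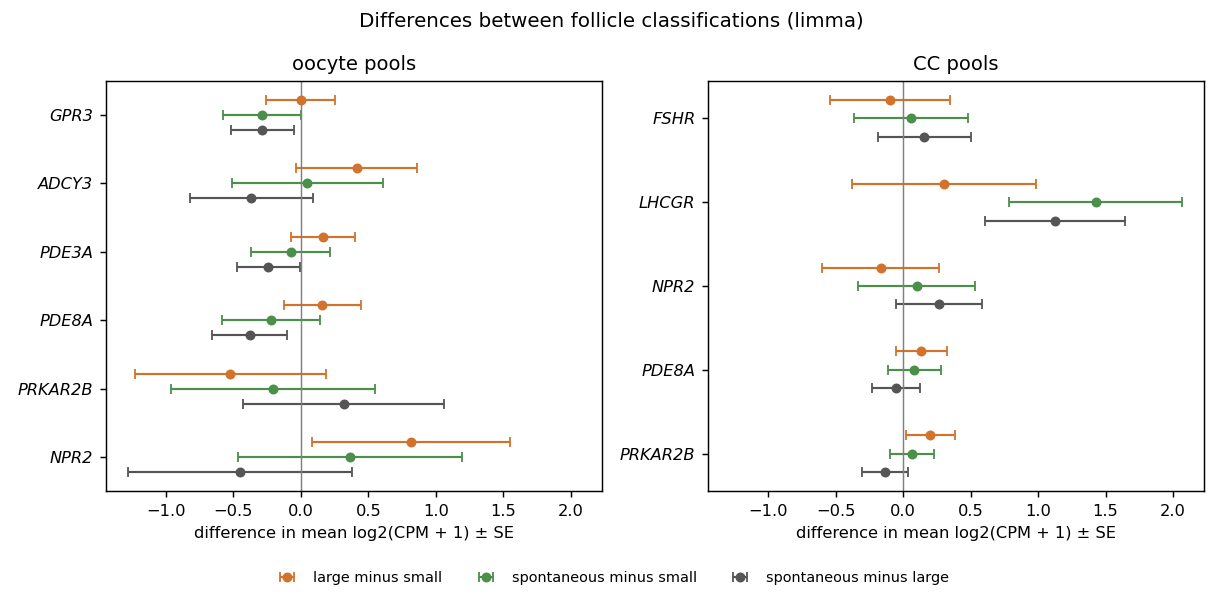
Difference in mean log2(CPM + 1) between follicle classifications with its standard error from limma, for the genes retained in oocyte pools on the left and in CC pools on the right. The LHCGR differences of spontaneous CC pools from small (1.43) and from large pools (1.13) lie farthest from 0 among CC genes, and the other CC genes lie between -0.17 and 0.27.

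Among the other genes of cyclic nucleotide signalling, 3 of 47 were called in CC from small to large follicles, all higher in large pools. PDE5A, a phosphodiesterase specific for cGMP, averaged 156 ± 53.3 CPM for small and 281 ± 100.6 CPM for large follicles (SD, n = 6 each), with a difference of 0.85 on the log2 scale (SE 0.254, limma p = 0.00321, exact permutation p = 0.0130). PKIB, an inhibitor peptide of protein kinase A, was at 17.3 to 34.2 CPM in small and 37.8 to 49.99 CPM in large pools, without overlap, and differed by 0.70 on the log2 scale (SE 0.22, limma p = 0.00497, exact permutation p = 0.00216). No smaller permutation p is possible with 6 pools on each side. AKAP12, a scaffold that anchors protein kinase A, rose from 63.0 ± 29.4 to 147 ± 64.2 CPM (SD, n = 6 for both), by 1.25 on the log2 scale (SE 0.357, limma p = 0.00233, exact permutation p = 0.0130). The limma adjusted p was 0.999 for each. PDE5A was no longer called without small replicate 4 (log2 fold change 0.68) or large replicate 6 (0.69). PKIB was not called without small replicate 1, 4 or 5 or large replicate 3 or 4, where the log2 fold change was 0.58 to 0.69. On the recovered reads edgeR called neither PDE5A (0.78) nor PKIB (0.59), DESeq2 did not call PKIB (0.60), and without a filter AKAP12 (1.25) and PDE5A (0.85) were not called. The median log2 fold change of the 47 genes was 0.15, and that of all CC transcripts 0.05. A limma p under 0.05 was found for 3 of the 47, beside 388 of all 9712 transcripts.

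From small to spontaneous follicles 2 of the 47 were called in CC, both higher in spontaneous pools. AKAP12 was again called, at 66.1 to 272 CPM in spontaneous pools (log2 fold change 1.15, SE 0.380, limma p = 0.00766, adjusted p = 0.416, exact permutation p = 0.0260). RAPGEF4, which encodes the cAMP-activated exchange factor Epac2, was at 13.1, 22.9 and 29.1 CPM in the lowest, median and highest small pool. In spontaneous pools RAPGEF4 was at 24.7 to 45.8 CPM (log2 fold change 0.78, SE 0.253, limma p = 0.00634, adjusted p = 0.390, exact permutation p = 0.0130). Leaving out small replicate 4 or 5 or spontaneous replicate 1, 2 or 5 ended the call of AKAP12, at log2 fold changes of 0.86 to 1.2. Leaving out small replicate 3 or 4 or spontaneous replicate 1, 2, 4 or 5 ended that of RAPGEF4, at 0.66 to 0.80. The median of the 47 genes was 0.19, and that of all CC transcripts 0.16. A limma p under 0.05 was found for 9 of the 47, beside 830 of all 9712 transcripts. With median-of-ratios size factors the only gene of the list still called in these 2 comparisons was AKAP12 from small to large, while PDE5A and PKIB were at 0.80 and 0.64 in that comparison and AKAP12 and RAPGEF4 at 0.99 and 0.63 between small and spontaneous pools. With edgeR the calls of AKAP12 (1.0) and RAPGEF4 (0.66) between small and spontaneous pools ended as well, and with DESeq2 that of AKAP12 (0.99).

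Between large and spontaneous CC pools 0 of the 47 genes were called, and 1 had a limma p under 0.05, beside 687 of all 9712 transcripts. AKAP6 was at 0 to 9.37 CPM in large and 2.30 to 19.3 CPM in spontaneous pools (log2 fold change 1.42, limma p = 0.0241, exact permutation p = 0.0693). AKAP7, with the next p, was at 1.81 to 3.92 CPM in large pools and at 0.882 to 48.5 CPM in spontaneous pools (log2 fold change 1.37, limma p = 0.0506, exact permutation p = 0.0584). On the recovered reads AKAP7 was called, with a log2 fold change of 2.46 in edgeR and in DESeq2, and with limma it was called without spontaneous replicate 5 (1.97). AKAP6 was called by limma without large replicate 5 (1.75) or spontaneous replicate 1 (1.78). With each pool left out the log2 fold changes ran from 1.08 to 1.78 for AKAP6 and from 1.28 to 1.97 for AKAP7. Over all alternatives, edgeR and DESeq2 among them, the p-values reached 0.0831 for AKAP6 and 0.0984 for AKAP7.

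**Figure D5:**
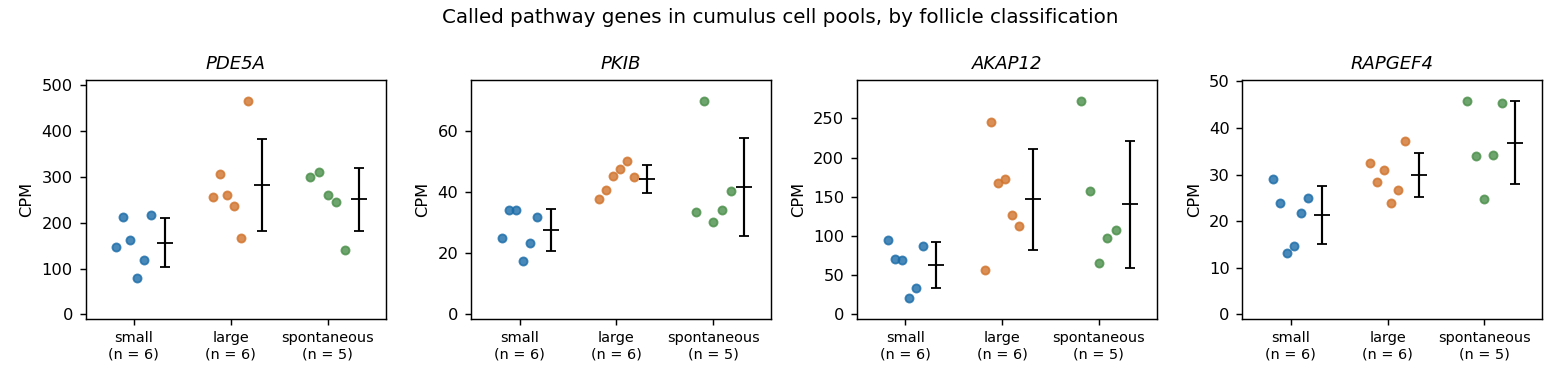
CPM of the 4 pathway genes called in CC, with 1 point per pool for small (n = 6), large (n = 6) and spontaneous (n = 5) follicles, and mean ± SD to the right of the points. PKIB separates small pools (17.3 to 34.2 CPM) from large pools (37.8 to 49.99 CPM), and the other genes overlap in part.

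In oocytes 0 of 53 pathway genes were called in each comparison, with 2, 4 and 2 at a limma p under 0.05 from small to large, small to spontaneous and large to spontaneous. Of all 10076 oocyte transcripts 414, 454 and 491 were under 0.05, in the same order. On the recovered reads edgeR called 0 in each, and DESeq2 called 1 (RAPGEF4, between small and spontaneous pools). RAPGEF3, which encodes Epac1, was at 0, 0.499 and 5.76 CPM in the lowest, median and highest small pool and at 0.169, 7.27 and 13.0 CPM in large pools (log2 fold change 1.53, SE 0.724, limma p = 0.0429, exact permutation p = 0.0584), and it was past the threshold without large replicate 6 (log2 fold change 2.0). In spontaneous oocyte pools RAPGEF3 was at 0.986 to 16.3 CPM (log2 fold change from small 2.10, SE 0.826, limma p = 0.0166, exact permutation p = 0.0143). Without spontaneous replicate 3 this difference was 2.81, and without small replicate 5 it was 2.45, both past the threshold. With each pool left out it ran from 1.77 to 2.81, and that from small to large from 1.28 to 2.0. Over all alternatives, edgeR and DESeq2 among them, the p-values of RAPGEF3 reached 0.0674 and 0.109 in these 2 comparisons. RAPGEF4 was at 36.9 to 105 CPM in small and 29.6 to 42.4 CPM in spontaneous oocyte pools (log2 fold change -0.83, limma p = 0.0238, exact permutation p = 0.0286), beside its difference of 0.78 in CC. The difference between the cell types was not tested.

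AKAP8, an anchoring protein of the nucleus, was at 15.3 to 113 CPM in small and 5.82 to 35.1 CPM in large oocyte pools (log2 fold change -0.95, limma p = 0.0447, exact permutation p = 0.117). Between large and spontaneous oocyte pools the smallest p-values were those of AKAP7, at 0.485 to 8.84 CPM in large and 6.84 to 16.3 CPM in spontaneous pools (log2 fold change 1.66, limma p = 0.0213, exact permutation p = 0.0143), and of ARRB2, a beta-arrestin that desensitizes receptors, at 2.40 to 8.61 and 8.36 to 33.8 CPM (log2 fold change 1.39, limma p = 0.0341, exact permutation p = 0.00952).

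The transcripts whose pattern over pools was most like that of a gene were found by the root mean square difference of standardised log2(CPM + 1), as a description. Over the 17 CC pools those nearest to LHCGR were SCN3A (0.455), TBC1D4 (0.517) and SMNDC1 (0.562), where the median of 8644 transcripts was 1.26. Those nearest to FSHR were SLC9B2 (0.576), TBC1D8 (0.577) and CDC14B (0.583), against a median of 1.29. Over the 16 oocyte pools LRP12 (0.621), SLAIN1 (0.631) and RNASEH1 (0.647) were nearest to GPR3, and THRAP3 (0.653), NSUN3 (0.724) and RPAP3 (0.738) to PDE3A, where the medians were 1.38 and 1.39.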

How the data were processed

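RNA of pools of 4 oocytes, or of the CC of the same complexes, was converted to amplified cDNA and read from one end by the authors, who aligned the reads to UMD3.1 with Hisat2 and counted them on Ensembl genes with FeatureCounts (versions not given in the sources used here). The deposited values are CPM, in a table per cell type, which the authors obtained by dividing each count by the pool's reads on genes. Amplification, and reads shared by overlapping genes, can alter levels, and strand was not given.

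Columns were matched to pools by name, with 0 left unmatched. Whole reads were recovered for 100% of values (tolerance 0.1 of a read). A transcript was tested if 4 or more oocyte pools, or 5 or more CC pools, reached 5 CPM. The test was that of limma 3.58.1 (R 4.3.3), with a mean-variance trend, on log2(CPM + 1), at a nominal p of 0.01. The log2 fold change is the second group named minus the first and understates changes of low transcripts. Exact permutation tests of mean CPM were two-sided. The authors used edgeR and DESeq2 on counts. Here edgeR 4.0.16 and DESeq2 1.42.0 were alternatives on recovered reads, and edgeR called 53, 56 and 91 transcripts in oocytes and 63, 128 and 127 in CC (small to large, small to spontaneous, large to spontaneous). The fits were tested on simulated data. Figures were drawn with Python 3.11.15, pandas 2.3.3 and matplotlib 3.10.9.

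The members and lists were chosen with earlier results of these data known. Named genes are the 10 members, and of the pathway list each gene called and the 2 with the smallest nominal p per comparison. The 3 transcripts nearest to FSHR, LHCGR, GPR3 and PDE3A were named by likeness. The pathway genes named for their levels in oocytes against CC were chosen after their values were seen. RefSeq names came from the ARS-UCD2.0 assembly, which differs from UMD3.1, so no coordinates or sequences are given. Each fit was repeated with a pseudocount of 0.1, with every transcript kept, with a filter on a mean of 1 CPM, with median-of-ratios size factors, without 13 mitochondrial genes, with all 3 classifications in one fit, with a replicate block, with edgeR, with DESeq2 and without each pool in turn. Setting oocyte and CC pools side by side without the 3 oocyte pools richest in cumulus transcripts, and without mitochondrial genes, was added after seeing the data. Markers of white blood cells summed to 14.2 to 93.6 CPM in CC and 120 to 262 CPM in oocyte pools. In oocytes CSF1R led this list, and CD14, CD79A, PTPRC and TYROBP averaged under 1 CPM. In CC CD79A averaged under 1 CPM. Markers of endothelium summed to 5.96 to 59.2 CPM in CC and 22.4 to 79.3 CPM in oocytes. Those of theca in oocytes summed to 3.36 to 144 CPM, and those of red blood cells to at most 4.19 CPM.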

Additional observations from a re-analysis of the deposited data

Results flagged for a closer look

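In 14 of 54 groups of 4 to 6 pools, the highest pool stood apart from the others by Dixon's criterion. Chance marks about 1 group in 20 if values are normally distributed, which was not tested for these CPM values, so that rate need not hold here. Groups in which most pools had no read make up several of the 14 groups. Among oocyte pools FSHR stood apart in large replicate 3 (3.89 CPM) and spontaneous replicate 4 (8.81 CPM). LHCGR stood apart in large replicate 6 (0.0845 CPM, 1 read), and NPPC in small replicate 2 (0.222 CPM, 3 reads) and large replicate 5 (0.0923 CPM, 1 read). NPR2 stood apart in small replicate 3 (6.92 CPM) and spontaneous replicate 3 (8.12 CPM), and PRKAR2B in large replicate 6 (26.0 CPM). PDE4D stood apart in small replicate 2 (13.3 CPM, 180 reads) and spontaneous replicate 3 (0.607 CPM, 8 reads). Among CC pools GPR3 stood apart in large replicate 1 (6.72 CPM) and ADCY3 in small replicate 6 (19.2 CPM). PDE3A did so in spontaneous replicate 4 (0.181 CPM, 1 read) and PDE8A in large replicate 4 (153 CPM).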

How the results depend on the processing

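Under the alternatives, 797 of the values of named genes kept their direction and their side of the threshold, 65 changed sign, 36 were no longer past the threshold and 11 came past it. The cause of these changes was not tested.

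The number of called transcripts from small to large oocyte pools was 100 without a filter and 113 with DESeq2. In oocytes between small and spontaneous it was 121 with DESeq2, and 49 (without spontaneous replicate 3) to 130 (without small replicate 3) with each pool left out. From large to spontaneous it was 148 without a filter, 181 with DESeq2 and 75 to 145 (without spontaneous replicate 2) with each pool left out. In CC it was 121 without a filter and 137 with all 3 classifications in one fit from small to large, and 52 (without small replicate 5) to 113 with each pool left out. Between small and spontaneous CC it was 126 with median-of-ratios scaling, 127 without mitochondrial genes, 128 with edgeR and 141 (without spontaneous replicate 5) to 313 with each pool left out. Between large and spontaneous CC it was 88 (without spontaneous replicate 4) to 232 with each pool left out, and 99 without spontaneous replicate 5.

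Pathway genes called numbered 1 from small to spontaneous oocyte pools without a filter and with DESeq2, and 0 to 1 in each oocyte comparison with each pool left out. In CC from small to large they numbered 1 without a filter, with median-of-ratios scaling, without mitochondrial genes and with edgeR, and 1 to 3 with each pool left out. Between small and spontaneous they numbered 0 with median-of-ratios scaling, without mitochondrial genes and with edgeR, and 0 to 4 with each pool left out. Between large and spontaneous they numbered 1 without a filter and with edgeR, 2 with DESeq2 and 0 to 1 with each pool left out. Of the 10 genes, 0 to 1 were called from small to spontaneous CC pools with each pool left out (LHCGR, without small replicate 4).

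Between classifications, pools with the same replicate number had correlations of -0.19 to 0.22, in levels taken relative to the mean of their classification. Pools with different numbers were not compared, so whether the replicate numbers pair the pools is not settled. With a replicate block, 42 transcripts were called from small to spontaneous oocyte pools, and 1 of the 10 genes, LHCGR, from large to spontaneous CC pools (log2 fold change 1.39). Under the same replicate block the log2 fold change from small to spontaneous was -0.1303 for ADCY3 in oocytes and -0.157 for FSHR in CC. From small to large CC pools PKIB was no longer called under this block.

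All signs that changed belonged to differences not past the threshold. With edgeR and DESeq2 the log2 fold change in oocytes was -0.0095 and -0.0175 for PDE8A from small to large, -0.1815 and -0.1828 for ADCY3 from small to spontaneous, and -0.0505 and -0.0418 for PRKAR2B from large to spontaneous. In CC it was -0.1616 and -0.1576 for LHCGR from small to large, and -0.0506 and -0.054 for FSHR from large to spontaneous. From small to spontaneous CC pools, with median-of-ratios scaling, without mitochondrial genes, with edgeR and with DESeq2, it was -0.0951, -0.1119, -0.3733 and -0.3744 for FSHR, -0.0129, -0.0253, -0.2037 and -0.2121 for NPR2, -0.0736, -0.0912, -0.0416 and -0.0499 for PDE8A, and -0.0899, -0.1074, -0.0883 and -0.0938 for PRKAR2B.

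With each pool left out, log2 fold changes that took both signs in oocytes ran from -0.1497 to 0.1396 for GPR3, -0.0759 to 0.242 for PDE3A and -0.0696 to 0.3122 for PDE8A from small to large. From small to spontaneous they ran from -0.1516 to 0.302 for ADCY3, -0.3167 to 0.1374 for PDE3A, -0.45 to 0.0467 for PDE8A and -0.563 to 0.2019 for PRKAR2B, and from large to spontaneous from -0.0358 to 0.7264 for PRKAR2B. In CC they ran from -0.3148 to 0.2319 for FSHR, -0.0287 to 0.7422 for LHCGR and -0.4187 to 0.0456 for NPR2 from small to large, and from -0.157 to 0.3897 for FSHR, -0.1523 to 0.312 for NPR2 and -0.0512 to 0.1637 for PDE8A from small to spontaneous. From large to spontaneous they ran from -0.1569 to 0.3078 for FSHR and -0.1866 to 0.0316 for PDE8A. NPR2 missed the filter in oocytes, and was not tested, without small replicate 3, large replicate 2 or 6 or spontaneous replicate 3.

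Depth limits the CC values of LHCGR, NPPC, NPR2, GPR3, ADCY3, PDE3A and PDE4D, of which a CC pool held at most 138 reads.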
